A study of Mus musculus with 2 samples.

Results

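The genes examined were Id1, Id2, Id3, Id4, Smad6, Smad7, Atoh8 and Bambi, 8 genes known to respond to bone morphogenetic protein (BMP) signaling through SMAD proteins, out of 18837 gene names with a tested probe. They were chosen as known BMP-SMAD response genes, with earlier results of these arrays already seen, and every probe that carries one of these names on the array was taken, which gave 10 of 56605 distinct probes. After 6 h of CHIR99021, Id2 was 3.25-fold lower, Atoh8 2.97-fold lower and Id3 2.34-fold lower than in control cells, and these 3 genes met the criteria for a lower gene given below. The ratio of Id4 was nearly as low as that of Atoh8, at a dim spot that did not meet the criteria. Id1, Smad6, Smad7 and Bambi also did not meet them, and no gene of the 8 was called higher. Of all tested gene names, 3.24% were called lower and 2.67% higher.

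BMPs are secreted ligands that bind serine/threonine kinase receptors, and the activated receptors phosphorylate Smad1, Smad5 and Smad9, which enter the nucleus with Smad4 and bind regulatory DNA. The Id genes are among the best known direct targets of this pathway. Id proteins have a helix-loop-helix domain without the basic region that contacts DNA, so they bind E proteins, the partners of many tissue-specific transcription factors, and keep them from DNA. Smad6 and Smad7 encode inhibitory SMADs, Bambi a pseudoreceptor without a kinase domain, and Atoh8 a basic helix-loop-helix transcription factor. In the developing tooth, BMP ligands pass between epithelium and mesenchyme, and Bmp4 is expressed in the enamel knot, the signaling center of the enamel organ.

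The data came from the line mDE6, odontogenic epithelial cells of the mouse with no stated transgene or deletion, with 1 array of control cells and 1 array of cells treated with CHIR99021, both at 6 h. CHIR99021 is an inhibitor of the kinase GSK-3, which marks β-catenin for degradation, and the study used the arrays to look for genes that respond to it. The labels describe the control as DMSO treated and the dose as 5 mM, whereas the methods describe untreated cells and 5 μM. Because each condition has 1 array, no difference given here has a replicate check, and no test or p-value is given. The errors printed with ± are those that the scanner software, Feature Extraction, assigned to a spot; they cover the measurement of the spot and leave out the spread between cultures.

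Each array held 59305 spots besides its controls, and the share of them well above background was 49.8% for control and 48.3% for CHIR99021. Probes printed 10 times gave a spot-to-spot SD of the log2 ratio with a median of 0.03. Signals were divided by the 75th percentile of their array before ratios were taken, and ratios are CHIR99021 over control. Of the probes whose ratio changed by more than 4-fold, 92.9% were in the later rows, after row 192 of 384, where 51.6% of the tested probes lie. The member probes of Id2, Id3 and Id4 lie in the earlier rows, and those of Id1, Smad6, Atoh8 and Bambi and the brighter probe of Smad7 in the later rows. Both arrays were on the same slide, so the place of an array on it and the treatment cannot be told apart. Of 8 epithelial markers, 3 were not well above background on either array (Cdh1, Epcam and Krt8), while the epithelial transcription factor Trp63 was measured on both arrays, as were all 5 mesenchymal markers, among them Vim, Col1a1 and Col1a2. Against the labelled cell type, E-cadherin (Cdh1) and keratin 8 thus gave no signal well above background. Of 4 endothelial markers, a cell type that also uses Id1, Id3, Smad6 and Atoh8, Cdh5, Kdr and Tek were not well above background on either array. The other, Pecam1, read 29.9 in control cells and 19.2 after CHIR99021, the latter not well above background, and it was not called; its part in the lower signals of the members was not tested. After CHIR99021, 3 of 7 tested β-catenin feedback genes were called higher, against 2.67% of all gene names, among them Lef1 with a ratio of 3.0. Axin2 was not called: 1 of its probes was at least 1.66-fold higher and the other was not well above background in either condition.

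The values below rest on what these probes read, so the first 30 of the 60 bases of the probe used are shown for members whose ratio was below 0.7, together with the probe for a second transcript under the name Id2. Positions are in mouse build mm9 as the files give them, and the files do not say which exon or untranslated region a probe lies in. The Id2 probe A_52_P240542 lies at chr12:25778904-25778963 on the minus strand and the second, A_52_P94071, at chr12:25780080-25780139 on the same strand. The Id3 probe A_51_P380178 lies at chr4:135700075-135700249 on the plus strand, a span of 175 bases for a probe of 60, so its bases are not contiguous in the genome. The Id4 probe A_51_P494430 lies at chr13:48359180-48359239 on the plus strand, and the Id1 probe A_55_P2052563 at chr2:152563083-152563142 on the plus strand. The Atoh8 probe A_51_P209736 lies at chr6:72156816-72156875 and the Smad6 probe A_51_P427926 at chr9:63801378-63801437, both on the minus strand.
Id2: tgagtgaaccttgtggactctttaattaga
Id2, second transcript: gtaatgtgcttgtgtgtctgttaaatgttt
Id3: tccgcatctcccgatccagacagctgagct
Id4: catgaggtgttcaatcacaaaataaaccag
Id1: attgttttacaatagttctatgggggtgag
Atoh8: tcgtccaaggaaattatggatgaggcccca
Smad6: acagtgtgcgcatcagcttcgccaagggct
Over the whole 60 bases, the longest run shared by any pair of the 10 member probes was 9 bases, and the same held for the 5 probes of the Id genes.

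Among the Id genes, Id2 had the lowest ratio. The signal of its main probe was 1028 ± 103 in control cells and 305 ± 31.2 after CHIR99021. The scaled signals gave a ratio of 0.308 and a log2 ratio of -1.70 ± 0.21. The Z-score, which is the log2 ratio minus the mean and divided by the SD of the 500 probes nearest in mean signal, was -4.54. A gene was called lower where its ratio did not exceed 0.66 and its Z-score did not exceed -2.0, and Id2 met both. Because RNA of whole cultures was measured, fewer expressing cells and less RNA per cell cannot be told apart here. Of those 500 probes, 1 other had a log2 ratio as low. The median log2 ratio of its 8 adjacent spots was 0.15. The second probe under this name, for the transcript AK013239, read 25.2 in control cells and 8.06 in treated cells, the latter not well above background. Its Z-score was -0.60, it was not called, and no lower limit of a fold above 1 can be given for it.

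Id3 was called lower at a bright spot. Its signal was 7640 ± 764 in control cells and 3153 ± 315 after CHIR99021, which gave a ratio of 0.428 and a log2 ratio of -1.22 ± 0.20. The Z-score was -4.33, and none of the 500 probes nearest in mean signal had a log2 ratio as low. Both criteria were met, and its 7 adjacent spots had a median log2 ratio of 0.20.

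Id4 was read at a dim spot. Its signal was 97.5 ± 10.9 in control cells and 31.9 ± 6.23 after CHIR99021, and it was well above background on both arrays. The ratio was 0.340 and the log2 ratio -1.56 ± 0.32, close to the ratio of Atoh8. Id4 did not meet the criteria, because its Z-score was -1.36. The 500 probes nearest to it in mean signal had an SD of 1.09, against 0.366 for those nearest to Id2, and 19 of them had a log2 ratio as low as that of Id4. When the nearest probes were taken only among those well above background on both arrays, 3 of 500 were as low, the Z-score was -3.13 and Id4 was called lower. Its 6 adjacent spots had a median log2 ratio of -0.36.

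Id1 lay at the edge of the ratio criterion. Its signal was 802 ± 80.4 in control cells and 516 ± 51.9 after CHIR99021, so the ratio was 0.667 and the log2 ratio -0.59 ± 0.20. With a Z-score of -1.72 it was not called lower, and 29 of the 500 nearest probes were as low. All 4 Id genes had a lower signal on the CHIR99021 array, by more than the error of their spots. The criteria were met by 2 of them, Id2 and Id3. Of all tested gene names, 46.6% had a log2 ratio below 0 and 3.24% were called lower. By log2 ratio, Id2 was the lowest of the Id genes, followed by Id4, Id3 and Id1. The error range of Id4 overlapped those of both Id2 and Id3. With normexp background correction the log2 ratio of Id4 was -0.70, against -1.49 for Id2 and -1.21 for Id3, so its place in this order depends on the background correction. Among all 18837 tested gene names, counted from the lowest ratio, Id2 ranked 549, Id4 589, Id3 748 and Id1 1872. Among the 16886 gene names measured on both arrays, the ranks were 55, 72, 166 and 1016.

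**Figure D1:**
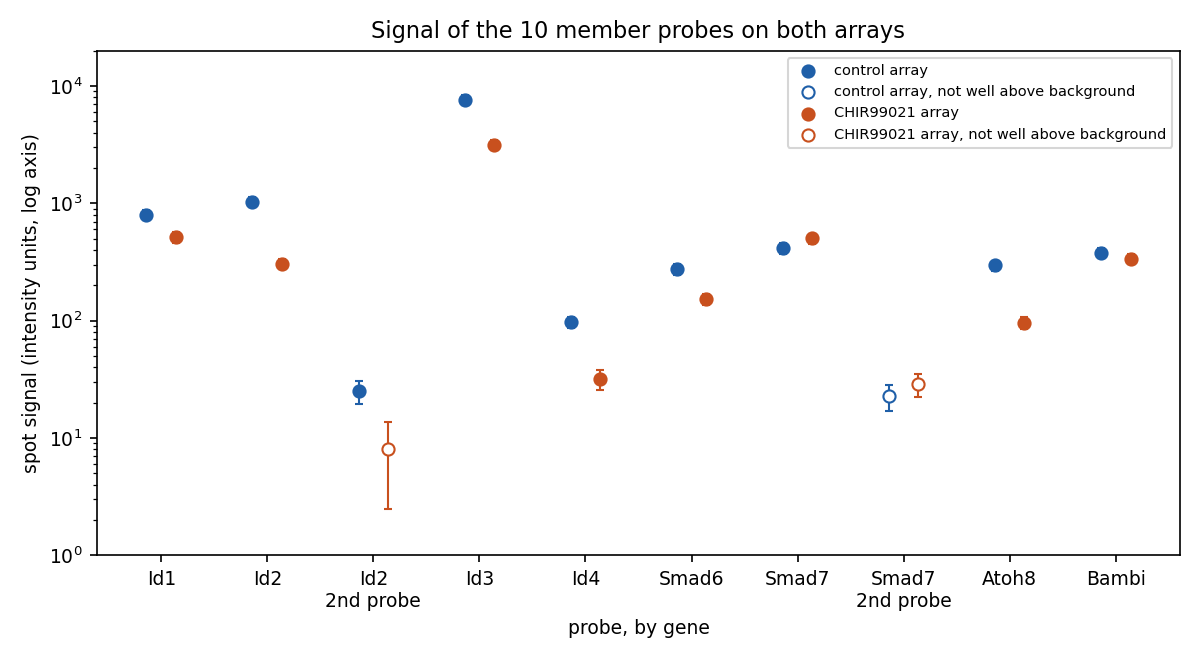
Signal of each of the 10 member probes in control cells (blue) and after CHIR99021 (orange), before scaling, in intensity units on a log axis; bars are the error of the spot given by Feature Extraction and open circles were not well above background. The signal of Id2 was 1028 and 305, that of Id3 7640 and 3153 and that of Atoh8 296 and 96.1, while the main probe of Smad7 had the higher signal after CHIR99021.

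The inhibitory SMADs had ratios on opposite sides of 1. The signal of Smad6 was 274 ± 27.8 in control cells and 154 ± 16.4 after CHIR99021, a ratio of 0.583 and a log2 ratio of -0.78 ± 0.21. It met the ratio criterion, but its Z-score of -1.74 did not meet the other, and 23 of the 500 nearest probes were as low. The spot lies at row 279 in the later rows, and 2 of the 28 tested spots within 3 rows and columns had risen by more than 4-fold.

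Smad7 was measured by 1 of its 2 probes. That probe read 415 ± 41.8 in control cells and 503 ± 50.6 after CHIR99021, a ratio of 1.26 and a log2 ratio of 0.33 ± 0.21, and its Z-score was 0.88. It was the one member gene with a higher signal after CHIR99021, and it was not called. Its spot is also in the later rows, and 2 of the 25 tested spots within 3 rows and columns had fallen by more than 4-fold. The other Smad7 probe read 22.7 and 28.8, neither of them well above background.

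Bambi, the pseudoreceptor, read 380 ± 38.4 in control cells and 338 ± 34.4 after CHIR99021. The ratio was 0.923, and the log2 ratio of -0.12 ± 0.21 lay within the error of the spot, and the Z-score was -0.24. Among all tested gene names Bambi ranked 6386 and Smad7 15363 from the lowest ratio, against 1302 for Smad6. Smad6, Smad7 and Bambi thus spread widely over the ranks.

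Among the 4 members outside the Id family, Atoh8 had the lowest ratio. Its signal was 296 ± 30 in control cells and 96.1 ± 11.1 after CHIR99021. The ratio was 0.337 and the log2 ratio -1.57 ± 0.22, the Z-score was -3.17, and Atoh8 was called lower. Of the 500 nearest probes 4 were as low, and its rank was 585 among all tested gene names and 70 among those measured on both arrays. Its spot lies at row 308, in the later rows. The 8 adjacent spots had a median log2 ratio of -0.02, and 0 of the 20 tested spots within 3 rows and columns had changed by more than 4-fold.

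Of the 8 members, 3 were called lower, whereas 3.24% of all tested gene names were (610 of 18837). None was called higher, against 2.67% of all gene names (503). By the ratio of at most 0.66 alone, 5 members were lower, namely Id2, Id3, Id4, Atoh8 and Smad6, against 9.67% of all gene names (1822), and none had a ratio of at least 1.5, against 8.05% (1516). The log2 ratio was below 0 for 7 of 8 members and for 46.6% of all gene names. The median log2 ratio was -1.0 over the members and 0.02 over all gene names. It was -1.39 over the 4 Id genes and -0.45 over Smad6, Smad7, Atoh8 and Bambi. These counts describe 8 genes on 1 pair of arrays, chosen with earlier results of the same arrays known.

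**Figure D2:**
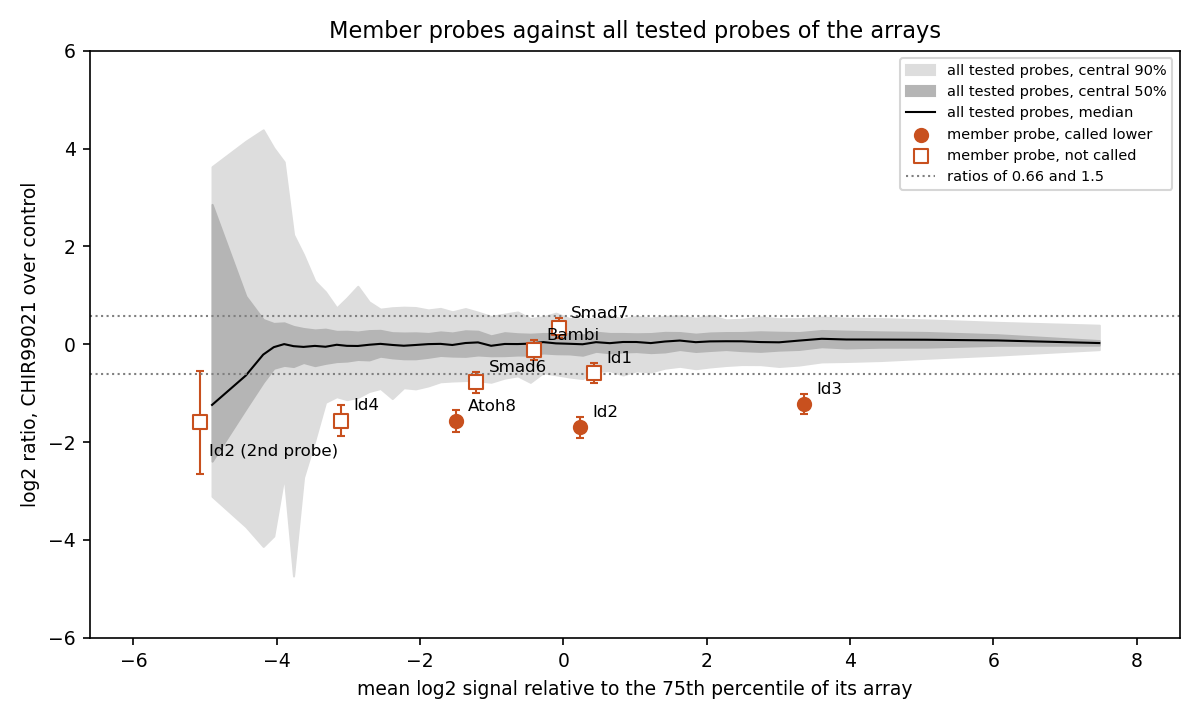
Log2 ratio of CHIR99021 over control for the 9 tested member probes (orange, with the error of the spot) against their mean log2 signal relative to the 75th percentile of the array; grey bands hold the central 50% and 90% of the 28066 tested probes in 50 bins of signal. Id2 (-1.70), Atoh8 (-1.57), Id4 (-1.56) and Id3 (-1.22) lie below the wider band, Smad6 (-0.78) and Id1 (-0.59) lie at its lower edge, and Id4 lies next to the low signals at which that band widens.

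Because 3 of the 4 Id genes had low ratios, the 250 bases before their transcription starts were read from the RefSeq promoter table (GRCm38.p6), which held such a window for 5 of the 8 members. The letters searched on both strands were GGCGCC, a GC-rich element bound by BMP-activated SMADs and its own reverse complement, CAGAC or GTCTG, the core of the SMAD box, and CAAAG or CTTTG, the core of the TCF/LEF site. No element found overlapped another. The windows shown are those of Id2 at chr12:25096093-25096342 on the minus strand, Id3 at chr4:136143572-136143821 on the plus strand and Id4 at chr13:48260866-48261115 on the plus strand, with the GC-rich element and the SMAD box core in capitals.
Id2: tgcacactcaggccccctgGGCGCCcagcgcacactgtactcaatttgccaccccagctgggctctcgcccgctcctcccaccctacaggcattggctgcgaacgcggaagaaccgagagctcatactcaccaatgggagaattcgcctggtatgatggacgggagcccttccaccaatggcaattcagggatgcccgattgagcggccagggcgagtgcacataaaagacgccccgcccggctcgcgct
Id3: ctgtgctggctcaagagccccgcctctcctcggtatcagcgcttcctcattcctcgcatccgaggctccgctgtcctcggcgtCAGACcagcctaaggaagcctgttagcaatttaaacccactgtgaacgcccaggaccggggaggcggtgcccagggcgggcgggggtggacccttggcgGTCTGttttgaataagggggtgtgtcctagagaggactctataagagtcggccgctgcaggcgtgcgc
Id4: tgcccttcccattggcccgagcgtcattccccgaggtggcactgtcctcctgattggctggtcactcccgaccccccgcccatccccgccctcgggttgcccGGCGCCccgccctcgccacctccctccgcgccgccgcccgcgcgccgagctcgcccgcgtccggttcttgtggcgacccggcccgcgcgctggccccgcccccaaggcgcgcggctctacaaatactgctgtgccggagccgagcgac
GGCGCC was found once in the window of Id2, with its first base at -231 from the start, and once in that of Id4, at -148. It is held by 9.59% of all 32851 windows of that length. The SMAD box core was found in the Id3 window at -167 and -68, and 42.2% of all windows hold it. CAAAG or CTTTG was found in none of these 3 windows, but in those of Smad6, at -10, and Atoh8, at -80, as in 48.6% of all windows. A match of letters is a description of the window and not a binding site, and no binding was measured.

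Besides the members, 39 further genes of the BMP pathway were read, from ligands to responding transcription factors, of which 33 had a tested probe. Of these 33 genes, 4 were called lower, against 3.24% of all gene names, and 0 higher, against 2.67%. By the ratio alone, 8 did not exceed 0.66, against 9.67% of all gene names, and 2 reached 1.5, against 8.05% (Bmpr1b and Msx1, the former named after its value was seen). The median log2 ratio of this list was -0.10, and 20 of the 33 genes were below 0. The median depended on the choice of probe and filter, at -0.27 for the mean over probes, -0.34 for the lowest-ratio probe of each gene and -0.052 without a filter. The share called lower was larger in the list (4 of 33 genes) than among all gene names (610 of 18837).

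Among the ligands, Bmp4 was called lower. Its brighter probe read 22400 in control cells and 13803 after CHIR99021, a ratio of 0.639 at a Z-score of -2.82. The other Bmp4 probe read 4310 and 2533, a ratio of 0.610 at a Z-score of -2.47, so both probes of the gene met the criteria. Bmp6 and Gdf5 were dim and not called, with ratios of 0.789 and 0.482. Bmp5, named after its values were seen, was at least 3.27-fold lower at a spot not well above background in treated cells, and it was not called; the pixels of that spot were uneven on the control array, with an SD of 0.297 of their mean, above the 99th percentile of 0.260 in the earlier rows. A second Bmp5 probe went the other way, with a signal of 5.97 in control cells, not well above background, and 34.1 after CHIR99021, and it was not called either. The other 2 Bmp5 probes were not well above background in either condition, so the probes give no common direction for this gene.

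The receptors read at bright spots had ratios near 1. The ratio was 1.12 for Acvr1 and 0.883 for Bmpr1a, which encode type I receptors, and 0.875 for the type II receptor Bmpr2. Acvr2b, another type II receptor, was called lower, with a signal of 254 in control cells and 65.0 after CHIR99021, a ratio of 0.265 and a Z-score of -3.47. The ratio of Bmpr1b was 1.65 at a dim spot, with a Z-score of 1.46.

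Of the SMADs that carry the signal, Smad1 had a ratio of 1.08, Smad5 of 0.971 and the shared partner Smad4 of 0.847, and none of these was called. Smad9 was called lower at the edge of the Z-score criterion, with a signal of 209 in control cells and 99.3 after CHIR99021, a ratio of 0.493 and a Z-score of -2.02. Of the secreted antagonists, which bind BMPs outside the cell, Grem1 and Bmper had ratios of 1.36 and 1.39 and were not called. Nbl1 was called lower, with a signal of 6733 in control cells and 4177 after CHIR99021, a ratio of 0.644 and a Z-score of -2.49. None of the 5 intracellular inhibitors was called. With 3.24% of all gene names called lower and 2.67% higher, a count of 0 in a list of 5 does not set it apart. The ratio was 1.14 for the ubiquitin ligase Smurf1, 1.21 for the corepressor Ski and 0.877 for its relative Skil.

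Of 7 other transcription factors known to respond to BMPs, 0 met the criteria; with 3.24% of all gene names called lower and 2.67% higher, a count of 0 in a list of this size does not set it apart. The ratio was 0.932 for Dlx3, 1.54 for Msx1, whose Z-score was 1.78, and 1.14 for Msx2; these homeobox genes act in tooth and ectoderm development. The median log2 ratio of the 7 genes was -0.31, and the difference of this group from the Id genes was not tested, because each gene has 1 value. The log2 ratio was below 0 for 5 of the 7, and the 4 others, named after their values were seen, all lay on that side. Hey1 was at least 2.27-fold lower, and the ratio was 0.603 for Gata2, 0.676 for Gata3 and 0.809 for Dlx5.

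**Figure D3:**
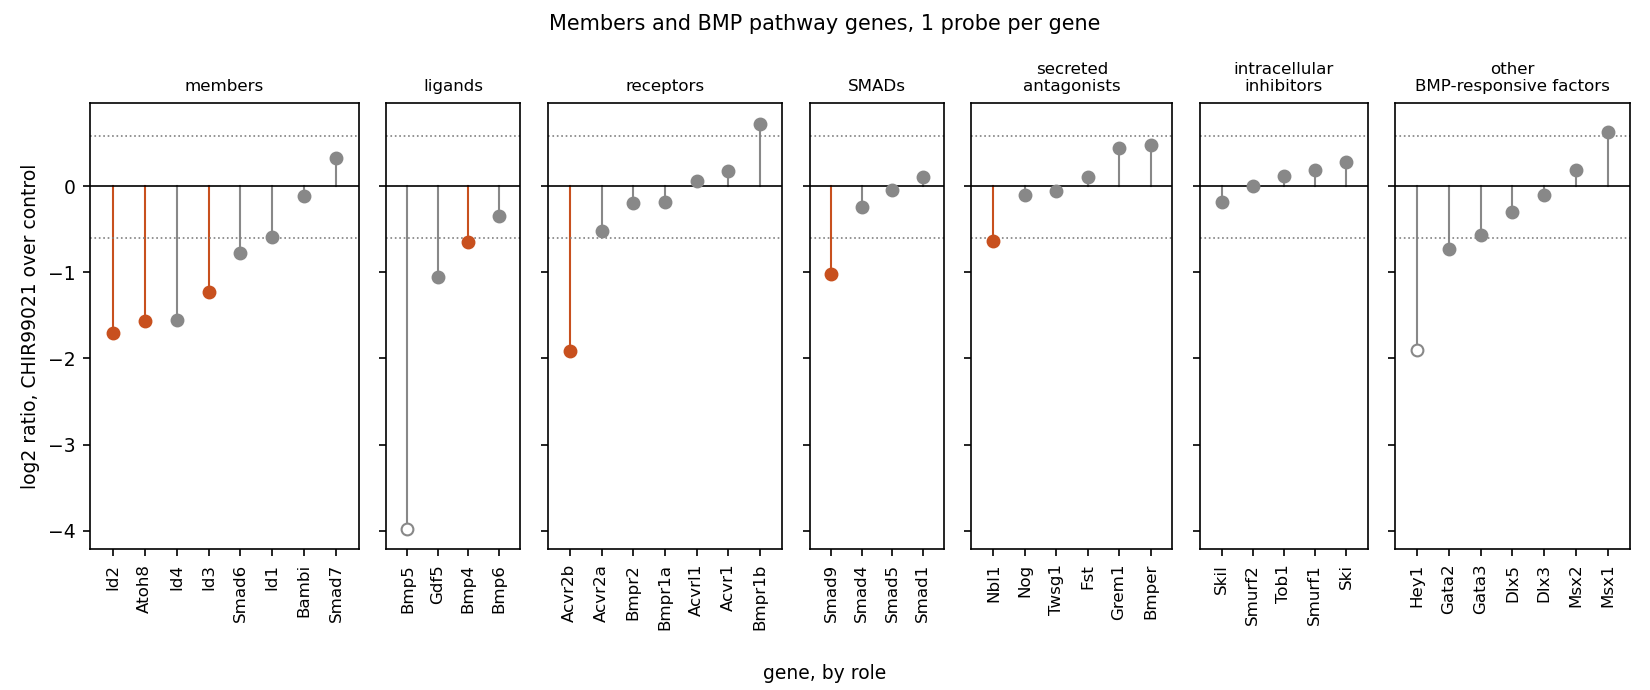
Log2 ratio of CHIR99021 over control for the 8 members and the 33 tested genes of the BMP pathway list, 1 probe per gene, grouped by role; orange marks genes called lower, open circles genes not well above background on the CHIR99021 array, whose computed ratio is not a measured one, and dotted lines ratios of 0.66 and 1.5. The called genes outside the members are Bmp4, Acvr2b, Smad9 and Nbl1, and Msx1 and Bmpr1b lie above the upper line.

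The partners of Id proteins were read next. The E proteins, encoded by Tcf3, Tcf4 and Tcf12, had ratios of 1.02, 1.06 and 0.921, and none was called. A dimmer Tcf4 probe read 5.13 in control cells, not well above background, and 93.0 after CHIR99021. Its Z-score was 1.98, and it was not called. The remaining tested Tcf4 probes had ratios of 0.830, 1.15 and 1.06. Of the inhibitors of cyclin-dependent kinases, some of which are genes that E proteins activate, Cdkn1a had a ratio of 1.17, Cdkn2a of 1.07 and Cdkn2b of 1.13. Cdkn1b and Cdkn1c had ratios of 0.717 and 0.631 and Z-scores of -1.87 and -1.78, so 0 of these 8 genes met the criteria, beside 3.24% lower and 2.67% higher among all gene names. Their median log2 ratio was 0.06.

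Genes known to respond to TGF-β, the related ligand that signals through other SMADs, gave a mixed picture. Of 7 tested genes, 1 was called lower and 2 higher, against 3.24% and 2.67% of all gene names, and their median log2 ratio was -0.06. Ctgf, also a target of YAP, was called lower at a ratio of 0.280 and a Z-score of -5.83. Pmepa1, an inhibitor of SMAD signaling, was called higher with a ratio of 1.96, and Itgb6 was at least 10.5-fold higher at a spot whose pixels were uneven after CHIR99021, with an SD of 0.386 of their mean. A second Itgb6 probe for the same transcript read 5.39 and 6.04, neither well above background, and did not show this rise. These 3 genes were named after their values were seen.

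The calls of the members were repeated under 16 alternatives of scaling, background correction, filter and Z-score, of which 15 gave a value for members in the later rows. Id2 and Id3 were called lower under each of the 16, with log2 ratios from -1.75 to -1.49 and from -1.30 to -1.19, and Atoh8 under each of the 15 that gave it a value, from -1.62 to -1.14. Most of these alternatives left the Z-score of these genes as it was: it moved by more than 0.01 under 4 of 16 for Id2, between -5.56 and -2.57, under 5 of 16 for Id3, between -4.93 and -4.19, and under 4 of 15 for Atoh8, between -4.35 and -2.96. Id4 was called lower under 5 of 16, with log2 ratios from -1.61 to -0.70, and Smad6 under 2 of 15. Id1, Smad7 and Bambi were called under none, with log2 ratios from -0.64 to -0.53, from 0.26 to 0.36 and from -0.17 to -0.08. No member changed the sign of its log2 ratio.

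**Figure D4:**
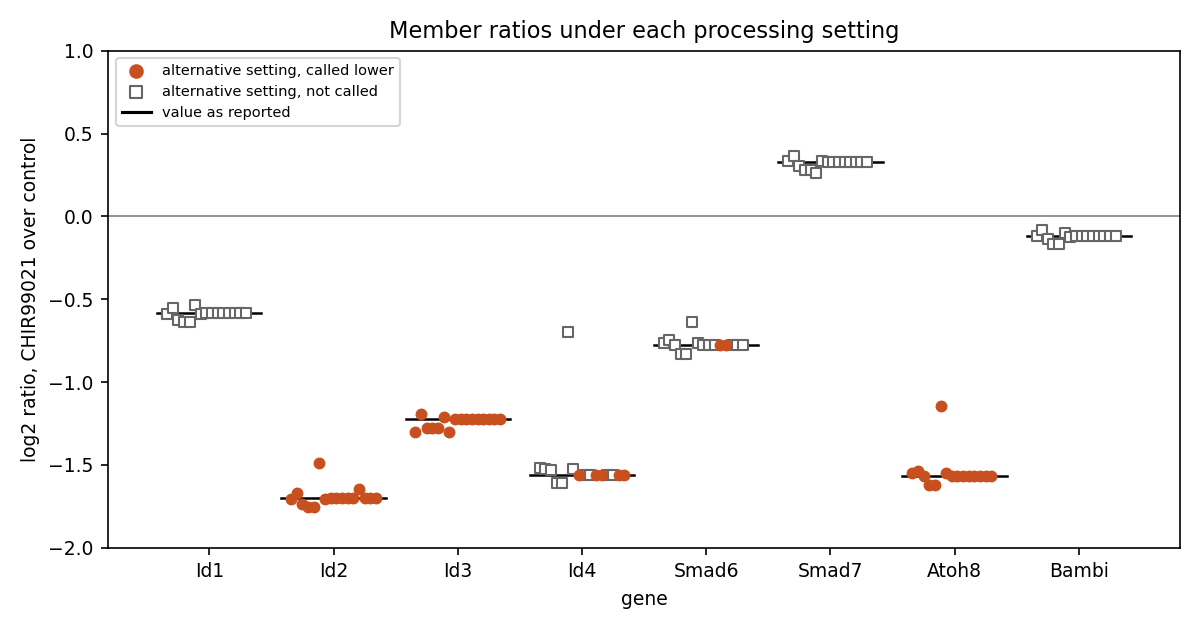
Log2 ratio of CHIR99021 over control for each member as reported (black line) and under each alternative setting (orange circles where the gene was called lower, open squares where it was not), side by side in the same order for each gene. Id2, Id3 and Atoh8 were called lower throughout, and the value of Id4 away from the others (-0.70) is the one with normexp background correction.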

How the data were processed

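The authors labelled total RNA of mDE6 cells with Cy3, hybridised it to single-color arrays (Agilent) and measured spots in Feature Extraction, version 10.7.1.1 per the file headers and 9.5.1.1 per the labels. The deposited intensity of a spot is background-subtracted and not normalized between arrays. The headers give a mouse design and build mm9, while the methods name a human array. A deposited table of normalized intensity (medians of 20.4 on both arrays, linear scale, sorted values equal as after quantile normalization) served as an alternative.

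From these intensities, log2 values minus the 75th percentile of their array (486.7 for control, 469.17 for CHIR99021) were taken in Python 3.11.15 (pandas 2.3.3, numpy 2.4.6). Control spots and outlier-flagged spots were left out, repeat spots were averaged, and the 28066 probes that were well above background on either array or both were tested. A gene took its tested probe with the highest mean signal. The criteria were a ratio up to 0.66 with a Z-score up to -2.0 for lower, and a ratio from 1.5 with a Z-score from 2.0 for higher. The methods do not define the Z-score and print its limit for lower genes without a minus sign; the sign was added here, and the 500 probes nearest in mean signal were used. With the limit read as printed, the Z-score would remove no low ratio, and the calls are those of the ratio alone. Where 1 array was not well above background, the fold is a limit against the higher of the spot's own signal and that array's lowest well-above-background signal, while calls use computed ratios. The computation of the Z-score and calls was tested on simulated data. Normexp (offset 50) and other scalings used limma 3.58.1 in R 4.3.3, and figures matplotlib 3.10.9.

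The members and gene lists were chosen with earlier results of these data known. Named were all members, pathway genes that met the criteria and up to 3 of the brightest genes of each role, besides those said to be named after their values were seen. The precision is limited by 1 array per condition.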

Additional observations from a re-analysis of the deposited data

How the results depend on the processing

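No paired analysis was possible because there is a single array per condition. The median log2 ratio of the members (-1.0) was -1.03 with quantile normalization, -0.97 with median scaling, -1.05 without scaling, -1.05 with the percentile taken over probes measured on both, -0.67 with normexp, -1.03 in the authors' normalized table and -1.56 over the 3 members in the earlier rows. That of the BMP pathway list (-0.10) was -0.15 under cyclic loess, quantile normalization, the authors' table, no scaling and the percentile over probes measured on both, -0.070 with median scaling, -0.052 without a filter, -0.27 as the mean over probes, -0.34 at the lowest-ratio probe and -0.14 in the earlier rows. The ratio criterion alone, which drops the Z-score, gave 5 lower members, 8 lower and 2 higher pathway genes, and 2717 lower and 2312 higher probes in place of 762 and 670. The median and MAD, which large changes widen less, gave 5 lower members, 7 lower and 2 higher pathway genes, and 1377 lower and 1282 higher probes. The floor on low signals gave 3 of 33 lower pathway genes in place of 4 of 33. The count was 5 of 31 for probes well above background on both arrays, 5 of 32 without uneven spots and 5 of 39 without a filter. The earlier rows gave 6 of 24, and the remaining alternatives gave 4 of 33. Without a filter 916 probes were lower and 1049 higher, and with the floor on low signals 722 and 754, so the excess of lower over higher probes turned round under both. Further, the earlier rows, where 13577 probes were tested, held 355 lower and 258 higher probes. The log2 ratios of the 8 members and both medians kept their sign under these alternatives, single pathway genes were not followed, and causes beyond these constructions were not tested. The earlier rows were taken as an alternative after seeing the data. Signal over background limits the second probes of Id2 and Smad7 and the Z-score of Id4.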
